A study of Homo sapiens with 12 samples.

Results

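Sympathetic neurons and the chromaffin cells of the adrenal medulla make the catecholamines dopamine, noradrenaline and adrenaline, and the genes that do so were followed here in 2 long-established lines of human neuroblastoma, NGP and SK-N-BE2. All 10 chosen genes were found by name among the 19923 genes counted: the enzymes of synthesis TH, GCH1, DDC, DBH and PNMT, the vesicle transporters SLC18A1 and SLC18A2, the plasma membrane transporter SLC6A2, and the oxidases MAOA and MAOB. They were chosen for their roles in the pathway, with earlier results of these data known. The labels give both lines as wild type and MYCN-amplified. Cells received STM2457, an inhibitor of the m6A RNA methyltransferase METTL3, or its solvent DMSO for 6 days, at 12 µM STM2457 in SK-N-BE2 and 1 µM in NGP. Each of the 4 groups held 3 replicates. Line and dose changed together. The count headers also group the libraries of each line apart, which may reflect separate sequencing runs, though the labels name no run. A difference between the lines therefore cannot be told apart from a difference of dose or of this possible batch. Each line is a cultured tumour line and not a normal sympathetic cell, and the labels do not say whether replicates were separate cultures, so p-values measure the spread between these libraries, which may be technical.

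The pathway runs in a fixed order. TH hydroxylates tyrosine to DOPA with tetrahydrobiopterin, the cofactor whose synthesis begins with GCH1, and DDC turns DOPA into dopamine. The vesicle monoamine transporters, VMAT1 from SLC18A1 and VMAT2 from SLC18A2, load dopamine into vesicles, where DBH converts it to noradrenaline. PNMT, typical of chromaffin cells, makes adrenaline. SLC6A2 is the noradrenaline transporter, which takes released noradrenaline back into the cell, and is the route by which the imaging agent MIBG enters neuroblastoma. MAOA and MAOB, on the outer membrane of mitochondria, break down amines left in the cytosol.

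Promoter sequences are given for some of the genes described below that changed with STM2457. Transcription factors of sympathetic cells bind at promoters, but their part in these changes was not tested. RefSeq windows (GRCh38.p14) matched 5 of the 10 genes by symbol: DBH, DDC, SLC18A2, MAOA and MAOB. The 250 bases before each start are printed for DBH, which was lower with STM2457 in both lines, SLC18A2, which was lower in SK-N-BE2, and DDC, which was higher in NGP and has 2 starts in the table. Capitals mark the cAMP response element (CRE) TGACGTCA, its half-site TGACG and the homeodomain core ATTA, on either strand. The half-site lies within the full element.
DBH, chr9:133636113-133636362, plus strand: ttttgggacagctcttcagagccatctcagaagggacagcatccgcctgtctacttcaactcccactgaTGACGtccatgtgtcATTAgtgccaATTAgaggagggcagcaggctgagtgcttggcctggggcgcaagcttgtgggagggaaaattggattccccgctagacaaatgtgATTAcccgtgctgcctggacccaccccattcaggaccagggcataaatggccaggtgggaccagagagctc
SLC18A2, chr10:117240864-117241113, plus strand: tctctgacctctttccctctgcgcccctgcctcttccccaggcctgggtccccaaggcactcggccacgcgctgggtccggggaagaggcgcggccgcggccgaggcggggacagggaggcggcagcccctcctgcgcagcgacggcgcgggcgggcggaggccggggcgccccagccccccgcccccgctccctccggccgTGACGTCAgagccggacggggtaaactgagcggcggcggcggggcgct
DDC upstream start, chr7:50565406-50565655, minus strand: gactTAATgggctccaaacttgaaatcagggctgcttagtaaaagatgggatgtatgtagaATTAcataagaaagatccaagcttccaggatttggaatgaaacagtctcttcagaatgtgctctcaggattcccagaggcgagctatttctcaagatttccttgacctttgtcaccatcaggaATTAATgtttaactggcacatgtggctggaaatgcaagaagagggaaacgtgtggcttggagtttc
DDC downstream start, chr7:50561072-50561321, minus strand: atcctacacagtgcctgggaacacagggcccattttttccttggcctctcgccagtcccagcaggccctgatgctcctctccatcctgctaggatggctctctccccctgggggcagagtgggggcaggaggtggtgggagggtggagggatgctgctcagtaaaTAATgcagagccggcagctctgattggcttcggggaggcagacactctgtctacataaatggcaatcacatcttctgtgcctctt
Counting back from -1 at the base before the start, the DBH window held a CRE half-site from -181 and ATTA from -166, -156 and -71. The SLC18A2 window held a full CRE from -48 and no ATTA. The DDC windows held 5 ATTA matches between them, of which a pair on opposite strands overlaps, and no CRE half-site. Among all 35116 windows of this length, 1.65% held the full CRE, 21.2% the half-site and 47.4% ATTA, so the half-site and ATTA are common. Background knowledge places binding of PHOX2A at homeodomain sites of the DBH promoter. The motif of m6A was counted as GGACT, on the sense strand of the GENCODE 44 canonical transcripts. TH held 3 matches (1.64 per kb), DBH 2 (0.729 per kb), DDC 2 (0.994 per kb), SLC6A2 3 (0.506 per kb) and GCH1 0, against a median of 0.925 per kb over 20046 protein-coding transcripts. These matches describe letters and not sites of methylation, which these libraries did not measure.

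The libraries held between 47242379 and 58159937 counted reads. NGP DMSO replicate 1 stood apart: on counts halved to read pairs, its chi-square per degree of freedom was 97.0 and 63.5 against the other NGP DMSO replicates, which differed from each other by 11.4. METTL3, the target of the drug, was higher with STM2457 in both lines, at a log2 change of 0.52 in SK-N-BE2 (edgeR FDR 0.000106) and 0.92 in NGP (edgeR FDR 0.000300), where FDR is the Benjamini-Hochberg adjusted p over all genes tested. Of 8 sympathetic neuroblast markers, all had reads in every group, and their summed level was 5095 to 6439 CPM in SK-N-BE2 and 2265 to 3124 CPM in NGP. PHOX2A, a defining marker, measured 294 ± 67.7 CPM in SK-N-BE2 and 177 ± 43.6 CPM in NGP under DMSO (SD, n = 3). CPM stands for the usual depth-scaled read count, here with library sizes adjusted by TMM over the 12 libraries.

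SK-N-BE2 held much TH, DDC and SLC6A2 and less DBH than NGP, while NGP held much DBH and almost no TH. With DMSO, 9 of 10 genes were tested between the lines, and all 9 differed (edgeR FDR at most 0.00263), 7 higher in SK-N-BE2 and DBH and MAOA higher in NGP. Over all genes 71.1% were called in this comparison, 35.7% higher and 35.4% lower in SK-N-BE2, so a call by itself is common here. Replicates of the lines did not overlap for 9 of the 10 genes, beside 68.9% of all genes tested. MAOB was not tested. The baseline comparison uses the same DMSO libraries as the responses below.

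**Figure D1:**
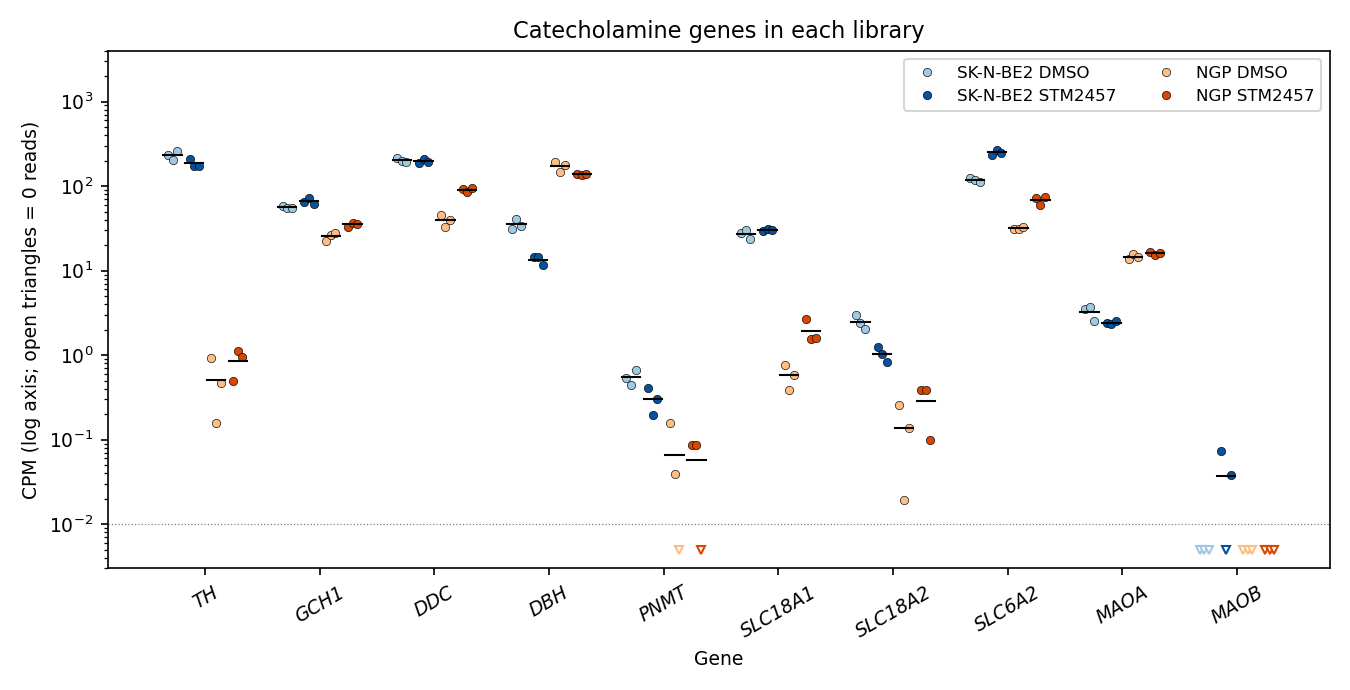
CPM of each gene in each of the 12 libraries on a log axis, with a bar at the mean of each group and open triangles for libraries with 0 reads. TH spans from 0.156 CPM in an NGP DMSO library to 264 CPM in an SK-N-BE2 DMSO library, and DBH is highest in NGP.

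TH (chromosome 11, 2163929 to 2171877, minus strand, GRCh38) measured 237, 201 and 264 CPM in the DMSO replicates of SK-N-BE2. In NGP the same condition gave 0.913, 0.156 and 0.467 CPM, from 78 reads in the 3 libraries together. The lines did not overlap, and the log2 difference, SK-N-BE2 over NGP, was 8.83 (SE 0.35, edgeR FDR 2.43e-11). Ranked by level per exon length, TH stood at 435 of 19923 genes in SK-N-BE2 and at 12528 in NGP.

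DBH (chromosome 9, 133636363 to 133659329, plus strand) had the opposite order. It measured 31.3, 40.7 and 34.0 CPM in SK-N-BE2 with DMSO and 192, 146 and 176 CPM in NGP. The log2 difference was -2.28 (SE 0.13, edgeR FDR 9.39e-10), every NGP library lying above every SK-N-BE2 library. Within each library the ratio of DBH to TH, both per kb of exon, was 0.156, 0.239 and 0.152 in SK-N-BE2. In NGP it was 248, 1105 and 446. The NGP ratios rest on few TH reads and so differ widely.

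The enzyme between them, DDC (chromosome 7, 50458436 to 50565405, minus strand), was higher in SK-N-BE2, at 202 ± 11.2 CPM against 39.3 ± 6.08 CPM in NGP (SD, n = 3). Cofactor synthesis followed the same order, with GCH1 (chromosome 14, 54842008 to 54902826, minus strand) at 56.1 ± 2.11 and 25.8 ± 2.96 CPM. The log2 differences were 2.36 (edgeR FDR 1.39e-10) for DDC and 1.12 (edgeR FDR 2.19e-07) for GCH1. PNMT (chromosome 17, 39667981 to 39670475, plus strand) was low in both lines, at 88 reads over 3 libraries in SK-N-BE2 and 10 in NGP with DMSO. Its difference was 3.03 (SE 0.76, edgeR FDR 0.00263).

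Among the transporters, SLC18A1 (chromosome 8, 20144855 to 20183206, minus strand) was the vesicle transporter with more reads in both lines. It measured 27.8, 30.3 and 23.9 CPM in SK-N-BE2 beside 0.774, 0.391 and 0.583 CPM in NGP with DMSO, a log2 difference of 5.54 (SE 0.24, edgeR FDR 6.26e-11). SLC18A2 (chromosome 10, 117241093 to 117279430, plus strand) measured 2.48 ± 0.488 and 0.138 ± 0.119 CPM (SD, n = 3), a difference of 4.15 (SE 0.55, edgeR FDR 9.63e-06). Exons of PDZD8 on the other strand cover 52.3% of its exon length, where reads are ambiguous and were not counted, so the SLC18A2 values are uncertain. Per kb of the 1968 bases that are not shared, SLC18A2 reached 1.26 ± 0.248 CPM in SK-N-BE2 with DMSO, still below SLC18A1 at 6.98 ± 0.824 CPM per kb. SLC6A2 (chromosome 16, 55655604 to 55706192, plus strand) measured 126, 117 and 110 CPM in SK-N-BE2 and 30.8, 31.4 and 32.7 CPM in NGP, a difference of 1.90 (SE 0.10, edgeR FDR 5.95e-10). A same-strand transcript of GENCODE 44 covers 17.9% of the SLC6A2 exon length, so its reads cannot be told apart from those of SLC6A2.

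MAOA, the oxidase that prefers noradrenaline and serotonin, was low in SK-N-BE2 and higher in NGP. MAOA (chromosome X, 43654907 to 43746824, plus strand) measured 3.51, 3.74 and 2.50 CPM in SK-N-BE2 and 13.9, 15.6 and 14.4 CPM in NGP with DMSO. All 3 NGP libraries were higher, with a log2 difference of -2.16 (SE 0.15, edgeR FDR 9.33e-09). MAOB (chromosome X, 43766610 to 43882450, minus strand) had 0 reads in both DMSO groups and in NGP with STM2457, and 6 reads in all in SK-N-BE2 with STM2457. At this depth 3 reads correspond to 0.0524 to 0.0642 CPM per library, the limit for a count of 0 if reads were independent. Both reads of a pair can be counted, so the limit may be higher. It covers counting error only.

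**Figure D2:**
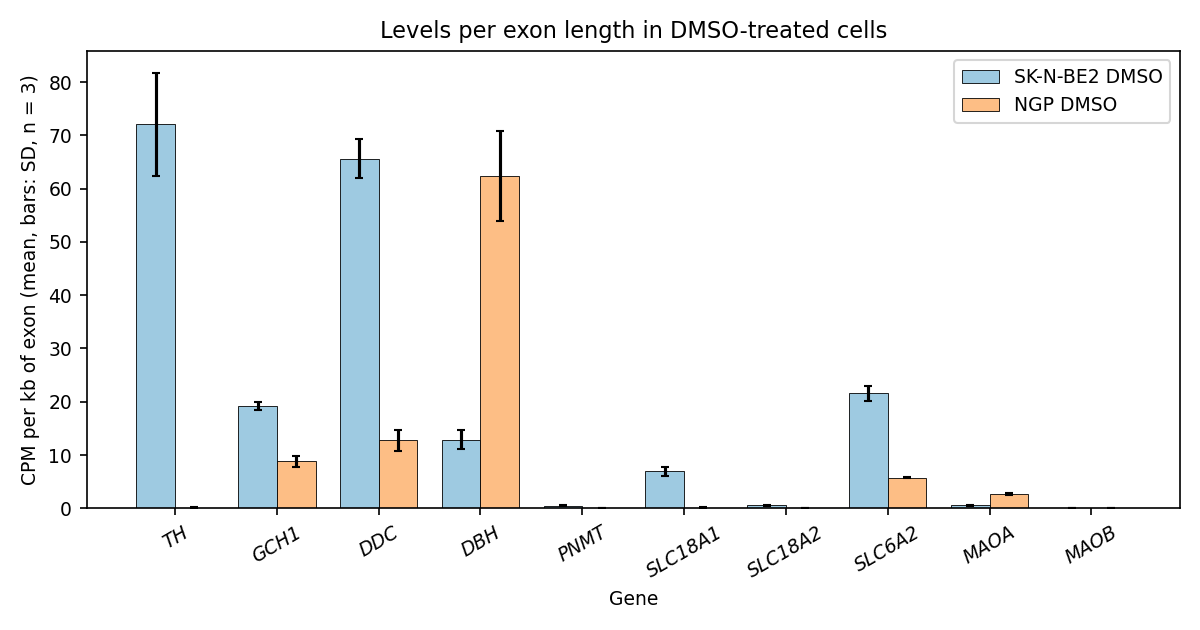
Mean CPM per kb of exon in the DMSO groups, with SD over 3 replicates, in the order of the pathway. TH and DDC lead in SK-N-BE2 at 72.1 and 65.6 CPM per kb, and DBH leads in NGP at 62.5. The SLC18A2 bars use its whole exon length, including bases shared with PDZD8.

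Per kb of exon with DMSO, the order in SK-N-BE2 was TH (72.1 ± 9.67 CPM per kb), DDC (65.6 ± 3.63), SLC6A2 (21.6 ± 1.41), GCH1 (19.2 ± 0.721), DBH (12.9 ± 1.76) and SLC18A1 (6.98 ± 0.824), all SD with n = 3. MAOA and PNMT lay below 1 CPM per kb, and SLC18A2 at 0.600 ± 0.118 over its whole exon length or 1.26 ± 0.248 over the bases it does not share. TH and DDC, neighbours in that order, differed by less than their spread. In NGP the order was DBH (62.5 ± 8.44 CPM per kb), DDC (12.7 ± 1.97), GCH1 (8.81 ± 1.01), SLC6A2 (5.79 ± 0.173) and MAOA (2.64 ± 0.157), with the others below 1. The summed level of the 10 genes was 648 to 702 CPM in SK-N-BE2 and 254 to 307 CPM in NGP with DMSO.

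The response to STM2457 was asked of each line on its own 6 libraries. In SK-N-BE2 4 of the 9 genes tested changed, SLC6A2 higher and TH, DBH and SLC18A2 lower, where 54.7% of all genes tested changed, 26.9% higher and 27.8% lower. In NGP 5 of 8 tested changed, DDC, GCH1, SLC18A1 and SLC6A2 higher and DBH lower, against 41.7% of all genes, 19.4% higher and 22.2% lower. The median log2 fold change of the genes tested was -0.36 in SK-N-BE2 and 0.87 in NGP, beside -0.02 and -0.03 over all genes. With so few genes, the SK-N-BE2 median was the value of TH itself. The NGP median lay between TH (0.72) and SLC18A2 (1.03), which had few reads and were not called, so neither median describes the genes as a set. Replicates of treated and control groups did not overlap for 5 of the 10 genes in each line, against 62.2% of all genes tested in SK-N-BE2 and 54.7% in NGP. In bulk RNA, fewer cells expressing a gene and less RNA per cell cannot be told apart.

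**Figure D3:**
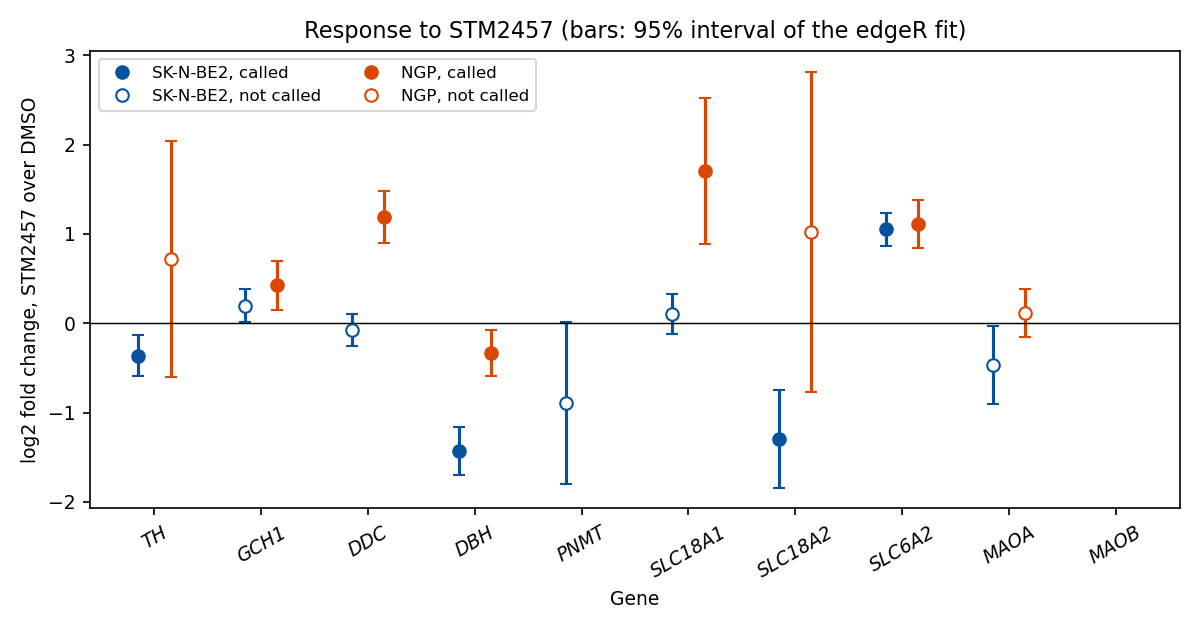
Log2 fold change of STM2457 over DMSO in each line for the genes tested, with the 95% interval of the edgeR fit, filled where the adjusted p was under 0.05. SLC6A2 lies near 1 in both lines, DBH is below 0 in both, and DDC and SLC18A1 are above 0 with filled points in NGP only. MAOB was not tested, nor PNMT in NGP.

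SLC6A2, the noradrenaline transporter, rose in both lines. In SK-N-BE2 it went from 126, 117 and 110 CPM with DMSO to 234, 271 and 247 CPM with STM2457, a log2 change of 1.05 (SE 0.09, edgeR FDR 5.83e-07). In NGP it went from 30.8, 31.4 and 32.7 to 73.1, 60.0 and 75.2 CPM, a log2 change of 1.11 (SE 0.12, edgeR FDR 0.000196). In each line all 3 treated libraries lay above all controls. The difference between the responses was -0.05, with a 95% interval from -0.35 to 0.25 (edgeR FDR 0.842).

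DBH, the noradrenaline-forming enzyme, fell in both lines and by more in SK-N-BE2. There it went from 31.3, 40.7 and 34.0 CPM to 14.5, 14.3 and 11.6 CPM, a log2 change of -1.43 (SE 0.12, edgeR FDR 7.89e-07). In NGP it went from 192, 146 and 176 CPM to 140, 136 and 139 CPM, a log2 change of -0.33 (SE 0.11, edgeR FDR 0.0427). The treated libraries lay below all controls in both lines, but the NGP call did not hold without DMSO replicate 3, nor without any single STM2457 replicate (edgeR FDR up to 0.149). It was also lost with a replicate block (edgeR FDR 0.0688) and in the joint fit of 12 libraries (edgeR FDR 0.0511). The responses differed by -1.08 (SE 0.17, edgeR FDR 0.000392).

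TH, the first enzyme, was lower with STM2457 in SK-N-BE2. It measured 210, 175 and 174 CPM with STM2457 beside 237, 201 and 264 CPM with DMSO, and the groups overlapped. The log2 fold change was -0.36 (SE 0.11, edgeR FDR 0.0109). That call was lost without DMSO replicate 3, STM2457 replicate 2 or STM2457 replicate 3 (edgeR FDR 0.0546, 0.0615 and 0.0657), and in the joint fit of 12 libraries (0.260). In NGP TH measured 0.491, 1.13 and 0.947 CPM with STM2457 beside 0.913, 0.156 and 0.467 CPM with DMSO. These overlapped, and the log2 fold change of 0.72 had a 95% interval from -0.61 to 2.04 (edgeR FDR 0.353). Without NGP DMSO replicate 1 it was 1.42 (edgeR FDR 0.0556), and the difference between the responses went from -1.07 (edgeR FDR 0.101) to -1.80 (edgeR FDR 0.00346).

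DDC, which makes dopamine, rose in NGP from 45.4, 33.3 and 39.3 CPM to 91.6, 86.3 and 95.8 CPM. The log2 fold change was 1.19 (SE 0.13, edgeR FDR 0.000217), with no overlap. In SK-N-BE2 it measured 215, 197 and 195 CPM under DMSO and 189, 209 and 191 CPM with STM2457, overlapping, at -0.08 (95% interval from -0.26 to 0.10, edgeR FDR 0.442). The responses differed by -1.26 (SE 0.15, edgeR FDR 3.11e-05).

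GCH1, the first enzyme of cofactor synthesis, rose in NGP from 22.5, 26.6 and 28.2 CPM to 33.1, 36.5 and 36.0 CPM. The log2 fold change was 0.42 (SE 0.12, edgeR FDR 0.0214). Leaving out any single STM2457 replicate ended this call (edgeR FDR up to 0.0850). In SK-N-BE2 its treated libraries, at 64.8, 72.2 and 60.7 CPM, also lay above the controls, at 58.5, 54.5 and 55.3 CPM, but the log2 fold change of 0.20 was not called (edgeR FDR 0.0717). It passed without SK-N-BE2 DMSO replicate 1 (edgeR FDR 0.0498). The difference between the responses was -0.22 (95% interval from -0.53 to 0.09, edgeR FDR 0.281).

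SLC18A1, the vesicle transporter VMAT1 typical of chromaffin cells, rose in NGP from 0.774, 0.391 and 0.583 CPM to 2.65, 1.54 and 1.62 CPM. The log2 fold change was 1.70 (SE 0.36, edgeR FDR 0.00585), from 89 reads to 278 reads over 3 libraries. In SK-N-BE2 it measured 27.3 ± 3.22 CPM under DMSO and 30.1 ± 0.625 CPM with STM2457 (SD, n = 3), with a log2 change of 0.10 (95% interval from -0.12 to 0.32, edgeR FDR 0.414). The responses differed by -1.59 (SE 0.31, edgeR FDR 0.00157). The treated level in NGP stayed below that of every SK-N-BE2 library.

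SLC18A2, the vesicle transporter VMAT2 typical of neurons, fell in SK-N-BE2 from 3.01, 2.38 and 2.05 CPM to 1.24, 1.04 and 0.837 CPM, without overlap. The log2 fold change was -1.29 (SE 0.25, edgeR FDR 0.000772). PDZD8, whose exons it shares, was not called in SK-N-BE2 (log2 fold change -0.15, edgeR FDR 0.182). In NGP SLC18A2 had 21 reads with DMSO and 41 with STM2457 over 3 libraries, and the log2 fold change of 1.03 was not called (95% interval from -0.77 to 2.82, edgeR FDR 0.328). The responses differed by -2.30 (SE 0.77, edgeR FDR 0.0344), a call that 8 of the 12 leave-one-library-out fits lost (edgeR FDR up to 0.0979).

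MAOA was not called in either line. In SK-N-BE2 it measured 3.51, 3.74 and 2.50 CPM under DMSO and 2.42, 2.32 and 2.51 CPM with STM2457, a log2 change of -0.47 (95% interval from -0.90 to -0.03, edgeR FDR 0.0686). It passed without DMSO replicate 3 (edgeR FDR 0.0203), with upper-quartile scaling (0.0453) and in the joint fit of 12 libraries (0.0367). In NGP MAOA measured 14.6 ± 0.868 CPM and 16.1 ± 0.835 CPM (SD, n = 3), a log2 change of 0.11 (95% interval from -0.16 to 0.38, edgeR FDR 0.476). The difference between the MAOA responses was -0.57 (95% interval from -1.01 to -0.12, edgeR FDR 0.0537) and was not called. That difference passed in 5 of 20 alternative fits. PNMT had 88 reads with DMSO and 48 with STM2457 in SK-N-BE2, where all treated libraries lay below the controls and the log2 fold change of -0.90 was not called (edgeR FDR 0.0877). In NGP it had 10 and 8 reads and was not tested.

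The test of the difference between the responses called DBH, DDC, SLC18A1 and SLC18A2, 4 of 9 genes tested, each with the more positive response in NGP, against 30.9% of all genes, 13.9% with the more positive response in NGP. Without NGP DMSO replicate 1, the log2 fold changes in NGP of DDC, SLC6A2, SLC18A1, GCH1 and DBH were 1.30, 1.09, 1.96, 0.33 and -0.25, each still called (edgeR FDR at most 0.0236).

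Other genes of the pathway were taken from 6 lists of 50 genes in all. In SK-N-BE2 37 were tested, 9 rose and 13 fell, a share of 59.5%, beside 54.7% of all genes. In NGP 36 were tested, 7 rose and 7 fell, a share of 38.9%, beside 41.7%. Without NGP DMSO replicate 1 the NGP count went from 14 to 22, while the count over all genes went from 5671 to 7897.

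**Figure D4:**
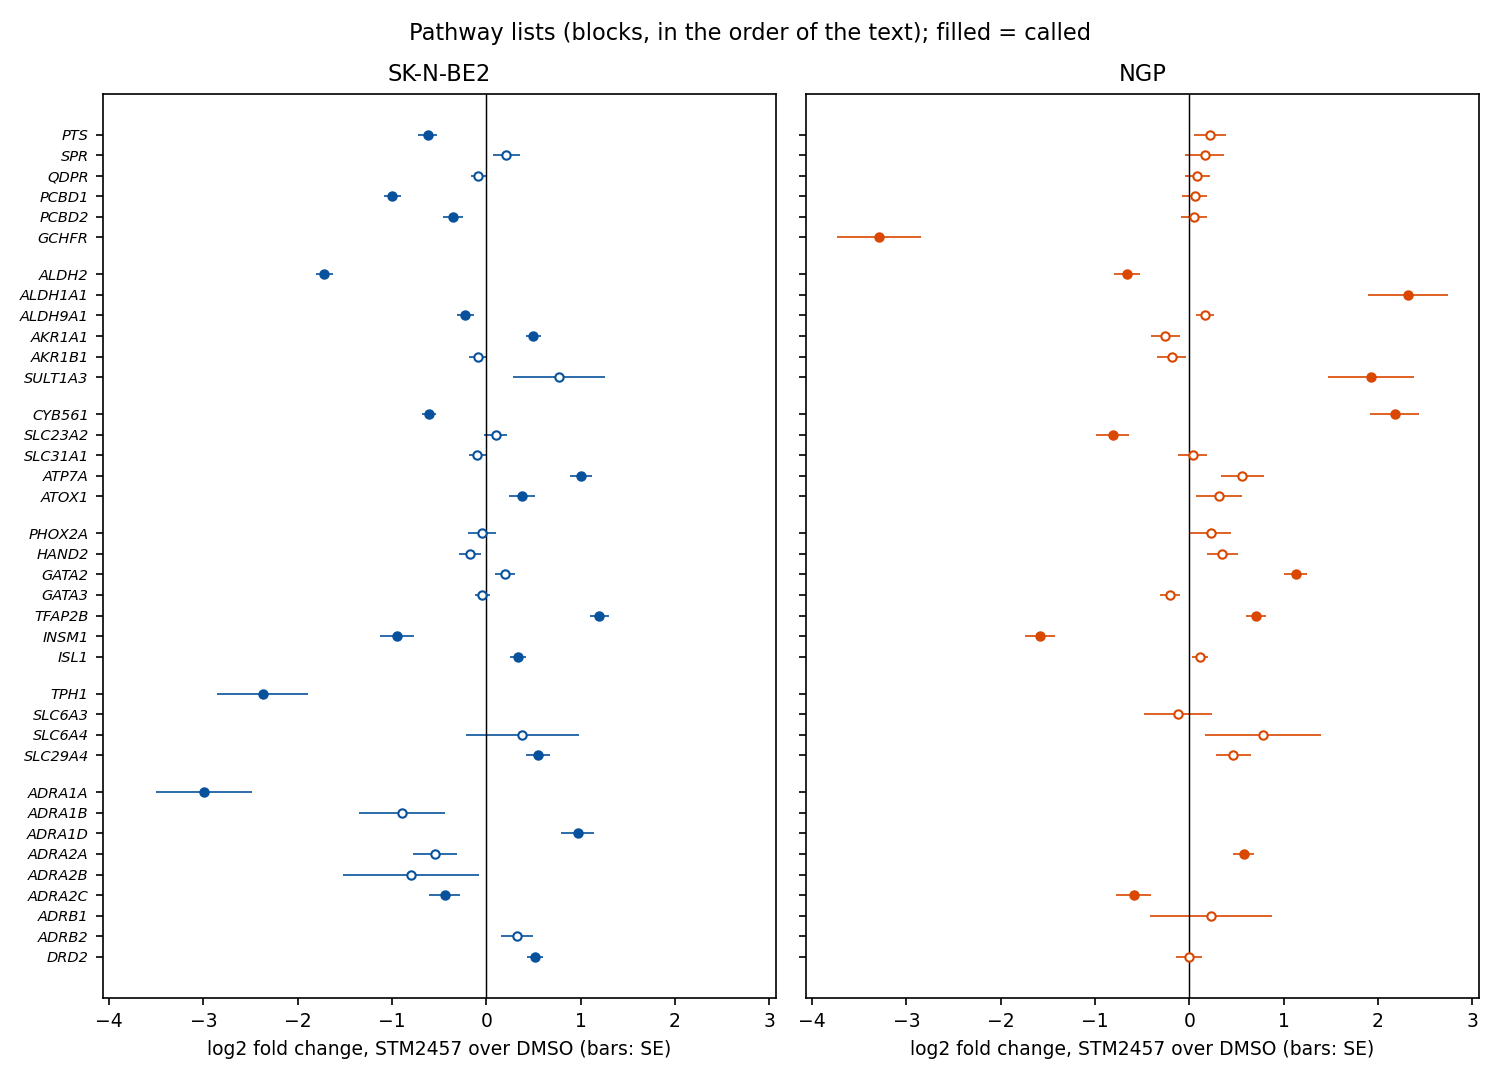
Log2 fold change with SE of tested genes of the 6 lists in each line, without those not reported here, in blocks from top to bottom: tetrahydrobiopterin, breakdown beyond MAO, ascorbate and copper supply, transcription factors, other monoamine genes, receptors. Filled points passed an edgeR FDR of 0.05, and CYB561 lies below 0 in SK-N-BE2 and above 0 in NGP.

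In the tetrahydrobiopterin list, which makes and recycles the cofactor of TH, 3 of 6 tested genes fell and 1 rose in SK-N-BE2. PCBD1, which dehydrates the used cofactor, fell by 1.00 in log2 units (edgeR FDR 1.10e-06), from 95.5 ± 9.30 to 49.1 ± 1.29 CPM (SD, n = 3). PTS, the enzyme after GCH1, fell by 0.62 (edgeR FDR 0.000147), and PCBD2, named after its value was seen, fell by 0.35 (edgeR FDR 0.0113). In NGP 1 of 7 rose and 1 fell. The fall was that of GCHFR, the feedback regulator of GCH1, named after its value was seen (146 reads with DMSO, 14 with STM2457, edgeR FDR 0.000692).

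In the list of breakdown beyond the oxidases, ALDH2 was lower in both lines. ALDH2, which oxidises the aldehydes left by the oxidases, fell by 1.72 on the log2 scale in SK-N-BE2 (edgeR FDR 8.79e-09) and by 0.66 in NGP (edgeR FDR 0.00563). The difference for ALDH2 was -1.04 (edgeR FDR 0.000365). AKR1A1, an aldehyde reductase, rose by 0.50 in SK-N-BE2 (edgeR FDR 0.000197). In this list 3 of 6 tested genes fell and 1 rose in SK-N-BE2, ALDH9A1 among those that fell (-0.22, edgeR FDR 0.0484), and 2 of 7 fell and 2 rose in NGP. The NGP rises were those of ALDH1A1 and SULT1A3, which like ALDH9A1 were named after their values were seen, and both stayed below 1 CPM. SULT1A3 has a near-identical copy and is uncertain.

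DBH needs ascorbate and copper. CYB561, the cytochrome that passes electrons into the vesicle to renew ascorbate, measured 201 ± 6.18 CPM in SK-N-BE2 and 0.673 ± 0.0606 CPM in NGP with DMSO (SD, n = 3). It fell by 0.61 on the log2 scale in SK-N-BE2 (edgeR FDR 2.08e-05) and rose by 2.18 in NGP (edgeR FDR 0.000357), to 3.11 ± 0.694 CPM. The difference of -2.77 was called (edgeR FDR 4.52e-07). The line with more DBH, NGP, had less CYB561. SLC23A2, an ascorbate transporter, fell in NGP (-0.81, edgeR FDR 0.00620), while ATP7A and ATOX1, which carry copper, rose in SK-N-BE2 (1.00, edgeR FDR 9.18e-06, and 0.38, edgeR FDR 0.0353). The ATOX1 call did not hold in 4 of 6 leave-one-library-out fits (edgeR FDR up to 0.138). In all, 2 of 5 rose and 1 fell in SK-N-BE2, and 1 rose and 1 fell in NGP.

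Among 9 transcription factors of sympathetic cells, 2 of 8 tested rose and 2 fell in SK-N-BE2, and 2 of 9 rose and 2 fell in NGP. INSM1, which acts early in the lineage, fell in both lines, and TFAP2B rose in both. INSM1 went from 253 ± 25.3 to 85.8 ± 19.0 CPM in NGP (-1.58, edgeR FDR 0.000156) and from 6.10 ± 1.09 to 3.24 ± 0.472 CPM in SK-N-BE2 (-0.95, edgeR FDR 0.000632), SD with n = 3. TFAP2B rose by 1.20 in SK-N-BE2 (edgeR FDR 5.17e-07) and by 0.71 in NGP (edgeR FDR 0.000909). GATA2 rose in NGP (1.13, edgeR FDR 0.000219), and ISL1, named after its value was seen, rose in SK-N-BE2 (0.34, edgeR FDR 0.00518). PHOX2A and HAND2 were not called in either line.

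Catecholamine receptors and other monoamine genes were mostly low. Of 14 receptors, 8 were tested in SK-N-BE2 (2 rose and 2 fell) and 4 in NGP (1 rose and 1 fell). DRD2, a dopamine receptor, rose in SK-N-BE2 from 79.0 ± 2.63 to 116 ± 8.69 CPM (0.52, edgeR FDR 0.000151). ADRA2A, an inhibitory adrenoceptor, rose in NGP from 39.8 ± 2.34 to 60.3 ± 6.07 CPM (0.57, edgeR FDR 0.00415). ADRA2C fell in both lines (-0.44, edgeR FDR 0.0348, and -0.59, edgeR FDR 0.0342), and its NGP call did not hold in 2 of 6 leave-one-library-out fits (edgeR FDR up to 0.124). ADRA1D rose in SK-N-BE2 (0.97, edgeR FDR 0.000483), and ADRA1A fell there to below 1 CPM (-2.99, edgeR FDR 0.000255). Of 8 other monoamine genes, 4 were tested in each line. In SK-N-BE2 1 rose and 2 fell. SLC29A4, a low-affinity monoamine transporter, rose there (0.55, edgeR FDR 0.00230), and TPH1, named after its value was seen, fell from a level below 1 CPM. In NGP 0 of 4 were called by edgeR, and 1 had an unadjusted p under 0.05, SLC29A4 (log2 fold change 0.46, edgeR FDR 0.0741).

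Over the 12 libraries, the genes whose log2 CPM was most like that of TH were PCBP3, PLOD3 and ACAT1, with a Pearson r of 0.997, 0.996 and 0.996 among 12647 genes. For DBH they were ALPK2, B9D1 and COL16A1, with an r of 0.994 each. The 12 points form 4 groups of 2 lines, so these values mainly describe the difference between the lines, and TH and DBH themselves had an r of -0.919.

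Markers of other cell types were summed per library. The 4 cholinergic markers summed to 2.48 to 7.37 CPM over all libraries, with SLC5A7 at 0 in every group. Of 5 Schwann cell markers 4 were in the files, at 0.300 to 5.80 CPM, with SOX10 at 0 in NGP under DMSO. The 6 mesenchymal markers summed to 684 to 845 CPM in SK-N-BE2, and in NGP to 55.0 to 73.1 CPM under DMSO and 162 to 169 CPM with STM2457, most of it VIM. Under DMSO 4 of the 6 were called higher in SK-N-BE2 and 1 higher in NGP. The latter was PRRX1, named after its value was seen, at 15.7 CPM in NGP and 0.0268 CPM in SK-N-BE2 (edgeR FDR 4.79e-10). VIM, a general filament gene, rose in NGP by 1.58 in log2 units (edgeR FDR 0.000161), the only 1 of 4 tested markers of this list called there. In SK-N-BE2 VIM fell (-0.24, edgeR FDR 0.0320), while 2 of the 5 markers tested rose. The 4 serotonergic markers summed to 105 to 163 CPM in SK-N-BE2 and in NGP to 57.3 to 76.1 CPM under DMSO and 27.1 to 40.7 CPM with STM2457, most of it FEV. The part of these markers in the changes above was not tested.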

How the data were processed

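RNA-seq libraries of 12 samples were used, 3 in each of 4 groups taken from the titles. The authors deposited raw read counts per gene, made with featureCounts 2.0.5 on protein-coding GENCODE 33 genes without strand, per the file headers. The submitters' processing notes name FastQC 0.11.5, Trimmomatic 0.36, HISAT2 2.1.0 and Subread 1.5.3, with no order. Reads and not pairs were counted, per the file headers, so a pair can add 2 to a count, and reads shared by overlapping genes were left out.

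Counts were tested with edgeR 4.0.16 (quasi-likelihood test, TMM, filterByExpr with a minimum count of 10) in R 4.3.3, with Benjamini-Hochberg adjustment over all genes tested and a threshold of 0.05. Each line was fitted on its own 6 libraries, and the difference between responses and the baseline comparison on all 12. Intervals cover 95%, and a count of 0 was read as allowing up to 3 reads. DESeq2 1.42.0, other scalings, filters, halved counts, a replicate block, a joint fit and leaving out each library were alternatives. The scripts were tested on simulated data. The genes and lists were chosen with earlier results of these data known. All 10 genes were named, and from each list up to 3 called genes per line with the largest change and a group mean of at least 1 CPM. Levels between genes were compared per kb of the exon length in the files. GENCODE 44 (GRCh38) was used for exon overlaps and transcripts. Some genes of the lists are counted but not reported here by name.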

Additional observations from a re-analysis of the deposited data

Results flagged for a closer look

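The responses to STM2457 differed between the lines for 4 of the 10 genes by edgeR's test of the difference over 12 libraries, 4 of 9 tested, beside 30.9% of all genes tested. The log2 difference, SK-N-BE2 minus NGP, was -1.26 for DDC, -1.59 for SLC18A1, -1.08 for DBH and -2.30 for SLC18A2. DDC and SLC18A1 rose in NGP and were not called in SK-N-BE2, DBH fell in both lines and by more in SK-N-BE2, and SLC18A2 fell in SK-N-BE2 with few reads in NGP. The SLC18A2 call was lost in 8 of the 12 fits with 1 library removed. Dose and the possible batch differed with the line and cannot be told apart from it.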

How the results depend on the processing

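Of 35 log2 values of the 10 genes, 26 kept their direction and side of the threshold under every alternative run, and 582 of 616 alternative values did so. Leaving out 1 library at a time gave 3 to 5 genes called in NGP, with 3 without any one of the STM2457 replicates, and 3 to 5 in SK-N-BE2 and in the difference between lines. Pathway genes called in NGP ranged from 12 to 22, the highest without NGP DMSO replicate 1 (15 higher and 7 lower). Over all genes, 3816 to 7897 were called in NGP. The difference between the SLC6A2 responses turned from -0.05 to 0.00027 without SK-N-BE2 STM2457 replicate 1 and to 0.015 without NGP STM2457 replicate 3, within a range of -0.14 to 0.02 over the libraries left out. The cause of these changes was not tested. Genes with few reads, TH and SLC18A2 in NGP and PNMT in SK-N-BE2, had wide intervals at this depth.

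With the replicate number as a block, 4 of the 10 genes were called in SK-N-BE2, 4 in NGP, 4 in the difference and 9 at baseline, and 7522, 5026, 4025 and 10233 of all genes. Pathway genes called were 22, 14 and 14 in SK-N-BE2, NGP and the difference. Same-numbered libraries had deviations whose correlations in SK-N-BE2 were -0.221, 0.148 and 0.048. For NGP they were -0.028, -0.29 and 0.186, and not every library correlated best with its own number. With so few libraries per group, these values cannot show whether same-numbered libraries were set up together, and the labels do not say. Among the 10 genes the block ended the call of DBH in NGP (log2 fold change -0.32, edgeR FDR 0.0688).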

Other observations

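Some genes of the cell type marker lists, named after their values were seen, also changed with STM2457. ACHE, which breaks down acetylcholine, fell in NGP by 3.12 in log2 units (edgeR FDR 0.000364), from a low level of 1.39 CPM to 0.161 CPM. CHGA, a protein of the dense-core vesicles that store catecholamines, fell in SK-N-BE2 by 0.73 (edgeR FDR 0.000200). It was the only 1 of 7 tested sympathetic neuroblast markers that fell there, while 2 rose. CHGB, of the same list, did not change in that line (log2 change -0.002, edgeR FDR 0.986). ERBB3, a receptor of the Schwann lineage, was higher under STM2457 in SK-N-BE2 (log2 change 1.34, edgeR FDR 0.000371) and lower in NGP (log2 change -1.81, edgeR FDR 0.0124). ERBB3 was also low, going from 1.24 to 3.24 CPM in SK-N-BE2 and from 1.10 to 0.314 CPM in NGP.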
